A study of Mus musculus with 4 samples.

Results

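The cells described here are CD8+ T cells (Tc) that carried RNA of both Cx3cr1 and Tox and in which no RNA of Mki67 or Top2a was caught. CD8+ Tc without RNA of Mki67 and Top2a are called non-cycling below. A barcode was kept with at least 500 genes, at least 1000 gene UMIs (unique molecular identifiers, each 1 captured RNA molecule) and at most 10% mitochondrial UMIs. It was taken as a CD8+ Tc with at least 1 UMI of Cd3d, Cd3e or Cd3g, at least 1 of Cd8a or Cd8b1, and none of Cd4 or Klf1. Double-positive Tc were the CD8+ Tc with at least 1 Cx3cr1 UMI, at least 1 Tox UMI and no UMI of Mki67 or Top2a. The rule gave 211 cells among 4267 CD8+ Tc and 11632 kept cells. They were thus chosen by their measured UMIs of Cx3cr1, Tox, Mki67 and Top2a, and the levels of these genes are given as a description, with no test. They stay in the fits across all genes, where Cx3cr1 is among the genes past the threshold in each comparison of gates and Tox in that with Tox-negative Cx3cr1-positive cells, so the counts of all genes include them.

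Spleen Tc came from 4 BALB/c recipients bearing the WEHI-3B acute myeloid leukemia line, 1 mouse and 1 library each, taken on day 23 after transplantation. All recipients had received lethal total body irradiation, 10000 leukemia cells, donor BM and, on day 2, 200000 donor Tc of the C57BL/6 background. The donors were Havcr2fl/fl;E8icre/+ or Havcr2fl/fl, both with the floxed allele of Havcr2, which encodes TIM-3. E8i-cre is driven by a Cd8a enhancer and is meant to delete Havcr2 in CD8+ cells. No untransplanted or leukemia-free group was analysed here. The libraries labelled Havcr2fl/fl;E8icre/+ replicates 1 and 2 are called Cre1 and Cre2, and those labelled Havcr2fl/fl replicates 1 and 2 are called Fl1 and Fl2. Values of the libraries are always given in the order Cre1, Cre2, Fl1, Fl2. The labels give no age for the mice, and the study gives only a range of weeks for all its mice.

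The libraries held 38386626, 31449644, 17693991 and 55045903 gene UMIs in 4328, 3208, 1511 and 6737 barcodes. The double-positive Tc numbered 65, 60, 41 and 45 cells and carried 315054, 369311, 277944 and 159964 UMIs. Library pairs shared between 1 and 10 barcodes, and no barcode of a double-positive Tc occurred in another library. Havcr2 in the double-positive Tc was at 76.2, 5.42, 57.6 and 200 UMIs per 1000000 gene UMIs of the summed cells (CPM), from 24, 2, 16 and 32 UMIs. It was low in Cre2, while Cre1 lay inside the range of the Fl libraries. The same held for the other non-cycling CD8+ Tc, at 48.3, 9.95, 41.4 and 105.5 CPM, so that the genotype label of Cre1 was not borne out by its Havcr2 RNA. Which exons the deletion removes is not given in the sources used here, and reads from the 3′ end outside them would not show it. Genotype comparisons of named genes and shares are therefore also given without Cre1, which leaves 1 Cre library against 2 Fl libraries, so that the spread comes from the Fl libraries alone and Cre2 is assumed to vary like them.

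CX3CR1 is the receptor of the chemokine fractalkine and marks effector Tc that circulate through blood vessels. TOX is a nuclear factor that Tc switch on under lasting antigen stimulation, and it maintains the exhausted state with its inhibitory receptors PD-1 and LAG-3. In chronic infection and tumors, exhausted Tc with CX3CR1 are known as an intermediate state that retains effector genes. KLF2 is a transcription factor of quiescent and circulating lymphocytes that drives S1pr1, the sphingosine-1-phosphate receptor through which Tc leave lymphoid organs.

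For comparison, the other non-cycling CD8+ Tc were split into Cx3cr1 single-positive Tc (100 cells), Tox single-positive Tc (1722 cells) and double-negative Tc (406 cells). A further 1828 CD8+ Tc had a UMI of Mki67 or Top2a and were taken as cycling. The Cx3cr1 single-positive gate held only 39, 17, 17 and 27 cells, which limits every comparison with it. The UMIs of all cells in a gate were added up for each library, and gates were compared within mice by edgeR's quasi-likelihood test with the mouse as a block.

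The 2 genes of the gate were weakly covered in single cells. Of the 211 double-positive Tc, 131 had exactly 1 Cx3cr1 UMI, 41 had 2 and 39 had at least 3, with a maximum of 10. For Tox, 52 cells had 1 UMI, 42 had 2 and 117 had at least 3, with a maximum of 15. Both genes were at 1 UMI in 32 cells, and both were at 2 or more in 60. Free RNA in droplets gives some UMIs to every cell. Erythroid cells (Klf1-positive, with no Cd3 or Cd8 UMI), which should lack both genes, were used as a rough guide to it. After thinning of each cell to 2000 UMIs, 0.841% of them had a Cx3cr1 UMI and 0.172% a Tox UMI. The shares in double-positive Tc are fixed by the rule, and the part of free RNA in cells with 1 UMI was not tested. The erythroid cells had median depths between 12784.5 and 23591 UMIs, and the double-positive Tc had 4581, 5918, 5893 and 3089. Thinning thus removed a larger part of the UMIs of erythroid cells, while the rule was applied without thinning. The erythroid shares here and below can therefore understate the free RNA that the gate met.

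The level of Cx3cr1 in the summed double-positive Tc was 336, 338, 309 and 331 CPM, a mean of 329 ± 13.3 (SD, n = 4), against 664 ± 55.6 in Cx3cr1 single-positive Tc. Tox was at 746, 693, 644 and 631 CPM, 679 ± 52.2, against 781 ± 37.5 in Tox single-positive Tc. Deeper cells pass such a gate more easily. The median depth was 4986 UMIs in double-positive Tc, 3367 in Cx3cr1 single-positive, 4355.5 in Tox single-positive and 2955.5 in double-negative Tc. Doublets of unlike cells would pass it too, and they were looked for by score only. Scrublet called 0 of the double-positive Tc, 4 of the other 2228 non-cycling and 11 of the cycling CD8+ Tc, too few for its calls to be of use. By its scores, 2.37% of the double-positive Tc were among the cells with the highest doublet scores against 1.97% of all other non-cycling CD8+ Tc. The donor tag against H-2Kb had a median of 1515 UMIs in double-positive Tc and 1346 in the others, and 5 of 211 cells fell below the limit set for the tag.

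The shares of each gene with and without the other were as follows. A Cx3cr1 UMI was found in 10.9% of the 1933 Tox-positive non-cycling CD8+ Tc and in 19.8% of the Tox-negative ones. Conversely, 67.8% of the 311 Cx3cr1-positive cells had a Tox UMI against 80.9% of the Cx3cr1-negative cells. Among all 437 CD8+ Tc with both genes, 226 (51.7%) had a UMI of Mki67 or Top2a and were left out by the rule, against 41.8% of the other CD8+ Tc. Those cycling cells had a median depth of 8276.5 UMIs, and deeper cells pass any rule of 1 UMI more easily. These shares are descriptions of the cells, with no test.

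The double-positive Tc made up 4.22% (95% Wilson interval 3.32 to 5.34), 6.25% (4.89 to 7.96), 8.32% (6.19 to 11.1) and 3.54% (2.65 to 4.70) among CD8+ Tc in the 4 libraries. The intervals cover counting error only. Fl1 was highest and Fl2 lowest, so the genotypes overlapped. The means were 5.23% ± 1.44 for Cre and 5.93% ± 3.38 for Fl (SD, n = 2 each), a difference of −0.694 percentage points with an exact two-sided permutation p of 1, where 0.33 is the smallest p that 2 libraries against 2 allow. Leaving out 1 library gave differences between −3.08, without Fl2, and 1.69, without Fl1, and without Cre1 it was 0.323. After each CD8+ Tc was thinned to 2000 UMIs, which kept 1427 of 1542, 928 of 960, 461 of 493 and 1078 of 1272 cells, the shares were 2.31%, 3.34%, 4.12% and 1.21%, a difference between genotypes of 0.163 percentage points, or 0.677 without Cre1.

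**Figure D1:**
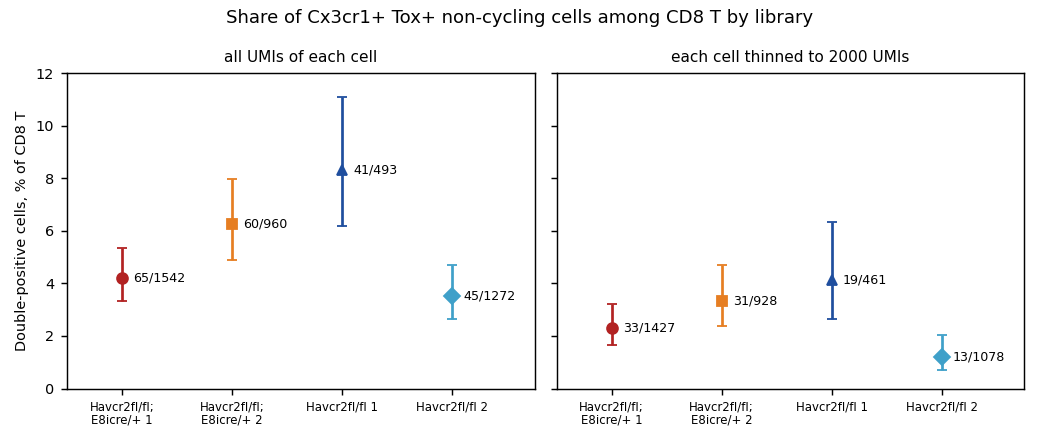
Share of double-positive Tc among CD8+ Tc (vertical axis, %) in each library (horizontal axis), with all UMIs of each cell on the left and after thinning to 2000 UMIs on the right. Points are shares, bars are 95% Wilson intervals for counting error, and the labels give cells over CD8+ Tc; Havcr2fl/fl replicate 1 is highest and Havcr2fl/fl replicate 2 lowest in both panels (8.32% and 3.54% on the left, 4.12% and 1.21% on the right).

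Klf2 and S1pr1 were not in the rule, but they were picked as markers of these cells with earlier results of these data known, so their pattern is no independent support for the label of an intermediate cell. Both lay between the single-positive gates in all 4 libraries. Such a level was not particular to double-positive Tc, since double-negative Tc were close to them in both genes at equal depth (shares below). Klf2 (chr8:72319033-72321656 on the plus strand of GRCm38) was at 413, 563, 968 and 469 CPM in double-positive Tc. It was at 1161, 1188, 1417 and 1674 CPM in Cx3cr1 single-positive Tc and at 86.7, 111, 182 and 206 CPM in Tox single-positive Tc. No library of one gate overlapped another gate, as was so for 7.74% of all genes against Cx3cr1 single-positive Tc and 4.67% against Tox single-positive Tc. Klf2 fell by 1.20 on the log2 scale against Cx3cr1 single-positive Tc (SE 0.20, adjusted p = 0.00158) and rose by 2.09 against Tox single-positive Tc (SE 0.195, adjusted p = 1.03e-05). The fall lost its call with cells of 3000 to 10000 UMIs and without the mouse as a block (adjusted p = 0.102). At equal depth, a Klf2 UMI was found in 47.2% ± 14.7 of double-positive Tc, 85.4% of Cx3cr1 single-positive Tc, 13.3% of Tox single-positive Tc and 0.200% of erythroid cells (means of 4 libraries). In double-negative Tc the share was 40.3% ± 14.1, and in Cre2 it was 46.0% against 41.7% in double-positive Tc. Without thinning the shares were 56.6%, 92.4% and 18.1% in the 3 gates named first, and 43.0% in double-negative Tc.

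S1pr1 (chr3:115710433-115715072, minus strand) was at 66.7, 70.4, 180 and 75.0 CPM in double-positive Tc, 281, 190, 253 and 127 CPM in Cx3cr1 single-positive Tc, and 21.02, 37.2, 55.8 and 22.6 CPM in Tox single-positive Tc. Every library of the double-positive Tc was above every library of the Tox single-positive Tc, while Fl1 at 180 overlapped the Cx3cr1 single-positive Tc of Fl2 at 127. S1pr1 fell by 1.27 on the log2 scale against the first gate (SE 0.253, adjusted p = 0.000372) and rose by 1.48 against the second (SE 0.211, adjusted p = 7.93e-07). Without Cre1 the fall was 0.87 with an adjusted p of 0.128. The rise was lost with at least 2 UMIs of each gene (1.14, adjusted p = 0.222), and both were lost without the mouse as a block (adjusted p = 0.327 and 0.209). After thinning, 16.7% of double-positive Tc had an S1pr1 UMI. The shares were 38.2%, 5.38%, 14.7% and 0.537% in Cx3cr1 single-positive, Tox single-positive, double-negative and erythroid cells. Without thinning they were 30.6%, 53.0%, 10.8% and 27.7% in the double-positive, Cx3cr1 single-positive, Tox single-positive and double-negative gates.

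The list of egress and lymphoid homing genes was then compared. Against Cx3cr1 single-positive Tc, 0 of 16 tested genes of this list rose and 11 fell, with a median of −1.20 on the log2 scale. Without Cre1, 7 of the 11 still passed, and S1pr1, Cxcr4, Itgal and Cmah did not (adjusted p up to 0.401). Of all 5015 genes tested in that comparison, 2.61% rose and 2.59% fell (261 genes, 5.2%), with a median of 0.01. Against Tox single-positive Tc, 7 of 16 rose and 0 fell, with a median of 0.48, where 1.83% of all genes rose and 0.439% fell (114 genes, 2.27%). In each of the 4 libraries 8 of these 16 genes lay between the single-positive gates, as did 5.04% of all genes tested. The whole list of 17 genes summed to a mean of 3442 CPM in double-positive and 3312 CPM in double-negative Tc. Without Cre1 the genes that rose and fell against Cx3cr1 single-positive Tc were 69 and 53 in place of 131 and 130, and those that rose against Tox single-positive Tc were 52 in place of 92. Without Cre2 those that fell were 9 in place of 22.

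Klf3, a relative of Klf2 that binds the same CACCC boxes, was at 111, 111, 158 and 50.0 CPM in double-positive Tc against 425, 249.5, 329 and 169 CPM in Cx3cr1 single-positive and 18.4, 21.5, 33.0 and 25.9 CPM in Tox single-positive Tc. The 3 gates did not overlap. It fell by 1.48 against the first gate (SE 0.287, adjusted p = 0.00173) and rose by 2.22 against the second (SE 0.27, adjusted p = 1.12e-05). The fall was lost with cells of 3000 to 10000 UMIs (adjusted p = 0.0874) and without the mouse as a block. At equal depth 14.9% of double-positive and 12.8% of double-negative Tc had a Klf3 UMI. S1pr4, another sphingosine-1-phosphate receptor of lymphocytes, was at 92.0, 70.4, 180 and 125 CPM against 296, 249.5, 278 and 211 CPM and 56.7, 52.5, 77.8 and 54.6 CPM. It fell by 1.24 (adjusted p = 4.59e-05) and rose by 0.90 (adjusted p = 0.000403, 0.0591 without Fl1).

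S1pr5, the receptor by which cytotoxic effector cells leave tissue, gave 7 UMIs in all double-positive Tc, 39 in the smaller set of Cx3cr1 single-positive Tc and 1 in Tox single-positive Tc. The levels were 3.17, 5.42, 7.20 and 12.5 CPM against 106, 190, 75.9 and 42.2 CPM in the Cx3cr1 single-positive gate, a fall of 4.13 on the log2 scale (SE 0.705, adjusted p = 2.28e-05). The call against Tox single-positive Tc, at an adjusted p of 0.0435, was lost without any 1 of the libraries (adjusted p between 0.0656 and 0.221). Ccr2, a chemokine receptor of recruited effector cells, was at 41.3, 27.1, 50.4 and 6.25 CPM in double-positive Tc and at 326, 131, 253 and 324 CPM in Cx3cr1 single-positive Tc, a fall of 2.97 (adjusted p = 3.02e-08). Against Tox single-positive Tc, at 26.3 ± 7.24 CPM, the difference of 0.28 had an adjusted p of 0.873. Itgb7, an integrin subunit of gut homing, lay between the gates at 190.5 ± 29.8 CPM against 375.5 ± 93.2 and 118 ± 15.7 CPM, with a fall of 1.00 (adjusted p = 1.46e-05) and a rise of 0.68 (adjusted p = 0.000317).

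The bases before the start sites of these genes were searched for CACCC and its reverse complement GGGTG, the core of the box that KLF factors bind, since Klf2, Klf3 and the S1pr genes passed the tests in the same directions. The windows are the 250 bases upstream of the start in RefSeq's promoters of GRCm38.p6, and 4 of the 5 genes looked for were found. S1pr1 was not matched. Klf2 held 1 match, 19 bases before RefSeq's start, which lies inside the gene as given above, Klf3 held 5, S1pr4 held 1 and S1pr5 held 2. Of 32851 mouse promoters of the same length, 52.0% held at least 1 match (CACCC in 30.2%, GGGTG in 31.3%), 21.1% held 2 or more and 0.7% held 5 or more. The windows of S1pr4 (chr10:81500138-81500387, minus strand) and S1pr5 (chr9:21248444-21248693, minus strand) are printed 5′ to 3′ along the gene's strand with the matches in capitals, as the receptors that fell in double-positive Tc by 1.24 and 4.13.
S1pr4: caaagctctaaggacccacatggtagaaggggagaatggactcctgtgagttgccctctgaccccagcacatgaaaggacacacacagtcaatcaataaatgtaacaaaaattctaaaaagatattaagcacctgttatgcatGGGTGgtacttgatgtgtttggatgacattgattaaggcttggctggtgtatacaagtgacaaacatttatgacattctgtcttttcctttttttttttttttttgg
S1pr5: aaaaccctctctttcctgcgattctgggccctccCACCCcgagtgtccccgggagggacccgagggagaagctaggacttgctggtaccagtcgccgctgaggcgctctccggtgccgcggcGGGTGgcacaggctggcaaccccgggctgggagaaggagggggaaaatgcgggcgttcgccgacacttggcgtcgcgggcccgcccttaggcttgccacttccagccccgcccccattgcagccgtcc
A match describes the letters only.

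**Figure D2:**
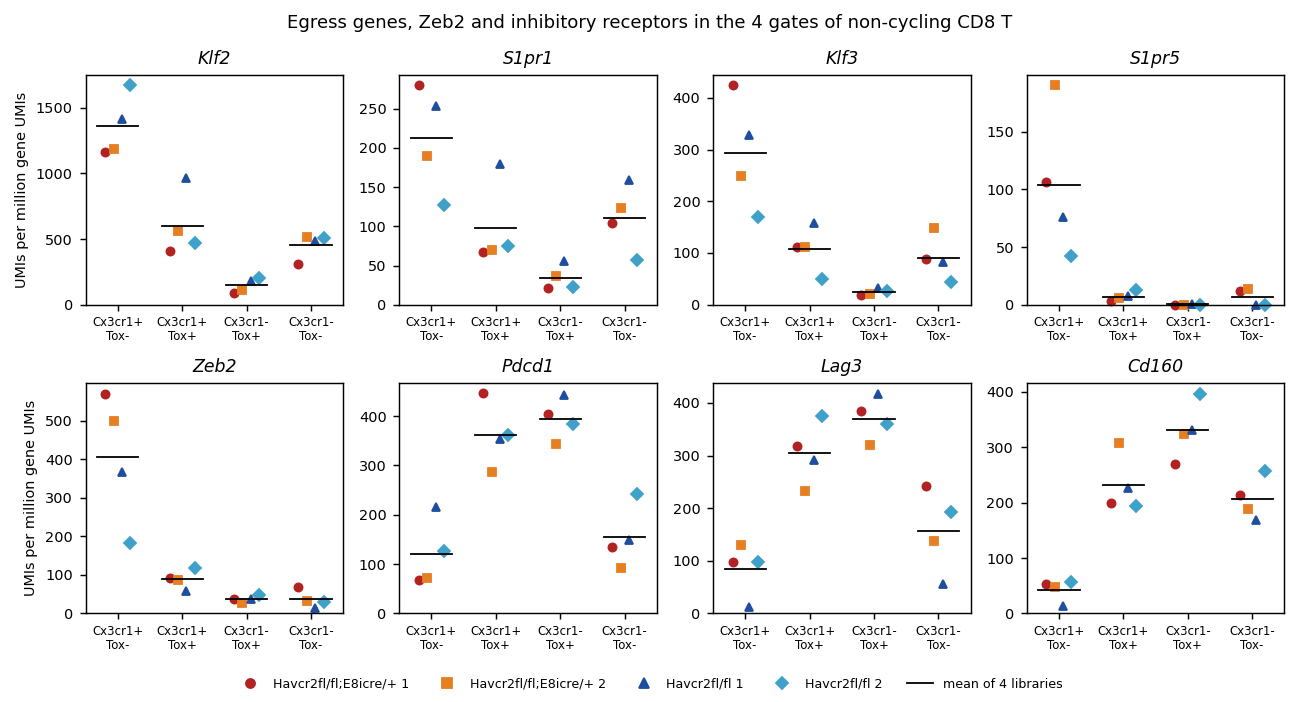
Levels (vertical axes, CPM) of Klf2, S1pr1, Klf3, S1pr5, Zeb2, Pdcd1, Lag3 and Cd160 in the 4 gates of non-cycling CD8+ Tc (horizontal axes). Each symbol is 1 library and the line is the mean of the 4. Klf2, S1pr1, Klf3 and Zeb2 of the double-positive gate lie between the single-positive gates, and S1pr5 lies near the Tox single-positive gate. Pdcd1, Lag3 and Cd160 lie above the Cx3cr1 single-positive gate.

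Effector fate factors were compared next. Zeb2, a repressor that drives terminal effector Tc, was at 92.0, 86.7, 57.6 and 119 CPM against 569, 499, 367 and 183 CPM in Cx3cr1 single-positive Tc and 38.3, 27.7, 38.5 and 47.2 CPM in Tox single-positive Tc. It fell by 2.28 against the first (SE 0.282, adjusted p = 1.13e-05) and rose by 1.24 against the second (SE 0.278, adjusted p = 0.013). The rise was lost without Cre2 (1.08, adjusted p = 0.160) and with cells of 3000 to 10000 UMIs (1.04, adjusted p = 0.0866). At equal depth 8.63% of double-positive, 45.3% of Cx3cr1 single-positive and 6.73% of Tox single-positive Tc had a Zeb2 UMI. In Fl1 and Fl2 the share was lower in double-positive than in Tox single-positive Tc (7.32% against 8.11% and 4.88% against 8.84%), and in Cre1 and Cre2 higher. Of the 11 effector fate factors, 0 rose and 4 fell against Cx3cr1 single-positive Tc (Zeb2, Rora, Tbx21 and Id2), and 1 rose and 1 fell against Tox single-positive Tc (Zeb2 and Id2). Tbx21, which encodes T-bet, was at 59.5 ± 8.76 CPM against 133 ± 16.2 and 43.7 ± 2.57 CPM, a fall of 1.17 (adjusted p = 0.00583) that lost its call without Fl1 or Cre1, where the highest adjusted p was 0.0604, and Rora lost its call without Cre1 (0.0891), which left Zeb2 and Id2.

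Id2, an inhibitor of E proteins, which favors effector over memory Tc, was at 809, 807, 601 and 750 CPM in double-positive Tc, below both single-positive gates in every library. Cx3cr1 single-positive Tc had 1411, 1224, 1582 and 971 CPM and Tox single-positive Tc 1180, 986, 1154 and 927 CPM. It fell by 0.79 (SE 0.111, adjusted p = 4.03e-07) and by 0.50 (SE 0.103, adjusted p = 0.00101), and both calls held with each library left out.

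Among the killer lectin and NK receptors, 1 of 8 tested genes rose and 5 fell against Cx3cr1 single-positive Tc, and 2 rose and 1 fell against Tox single-positive Tc. The gene that rose against the first, Cd244a, lost its call without Cre1 or Fl2 (adjusted p up to 0.282) and its fall against the second without any 1 library (up to 0.426). Klre1, which fell against the first, was lost without Cre1 (0.106), and the rise of Klrd1 against the second without Cre1, Cre2 or Fl2 (up to 0.504). Klrk1, which encodes the activating receptor NKG2D, was at 102, 173, 169 and 119 CPM against 379, 487, 430 and 366 CPM and 48.8, 50.3, 72.3 and 55.9 CPM. The 3 gates did not overlap, with a fall of 1.55 (SE 0.191, adjusted p = 5.42e-09) and a rise of 1.36 (SE 0.167, adjusted p = 7.53e-09). At equal depth 16.8% of double-positive and 18.2% of double-negative Tc had a Klrk1 UMI. Klrc1, an inhibitory NKG2A gene whose near-identical relatives make its count uncertain, fell by 1.41 against Cx3cr1 single-positive Tc (adjusted p = 2.17e-06) and differed by 0.15 from Tox single-positive Tc (adjusted p = 0.857). Klrg1, the marker of short-lived effector Tc, was too low to test, with 13 UMIs in double-positive Tc, 44 in Cx3cr1 single-positive and 14 in Tox single-positive Tc.

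Among cytotoxic granule genes, Gzma, which encodes granzyme A, was at 689, 904, 284 and 2732 CPM in double-positive Tc, highest in Fl2, as it was in Tox single-positive Tc (1111, 562, 455 and 3231 CPM). The Cx3cr1 single-positive Tc had 4514, 3672, 3265 and 4361 CPM, above all of these. The fall of 2.26 (adjusted p = 0.0239) was lost without Fl1, Cre1 or Cre2, where the adjusted p reached 0.204. Of 13 cytotoxic genes, 2 rose and 1 fell against Cx3cr1 single-positive Tc, and none passed the test in either direction against Tox single-positive Tc. Serpina3g, which rose, lost its call without Cre1, Cre2 or Fl2 (up to 0.243). Nkg7, a granule membrane protein, rose by 0.54 against Cx3cr1 single-positive Tc (SE 0.075, adjusted p = 4.03e-07), at 4074 ± 820 against 2759 ± 172 CPM.

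Among inhibitory receptors, Pdcd1, which encodes PD-1, was at 448, 287, 353 and 363 CPM in double-positive Tc, 68.3, 71.3, 215 and 127 CPM in Cx3cr1 single-positive Tc and 404, 344, 444 and 385 CPM in Tox single-positive Tc. It rose by 1.70 against the Cx3cr1 single-positive gate (SE 0.275, adjusted p = 0.000233), which it did not overlap. The difference from Tox single-positive Tc was −0.11 (SE 0.157, adjusted p = 0.918), and the libraries of these gates overlapped. At equal depth 46.1% of double-positive, 13.4% of Cx3cr1 single-positive, 51.3% of Tox single-positive, 23.5% of double-negative and 0.229% of erythroid cells had a Pdcd1 UMI. Without thinning the shares were 67.3%, 27.2% and 73.2% in the first 3 of these gates.

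Lag3, a receptor for MHC class II, was at 317, 233, 291 and 375 CPM against 98.6, 131, 12.7 and 98.5 CPM in Cx3cr1 single-positive Tc. It rose by 1.80 (SE 0.428, adjusted p = 0.0336), a call lost without Cre1, Cre2 or Fl2 (adjusted p up to 0.196), although the libraries did not overlap. Cd160, a receptor of the ligand HVEM, was at 200, 309, 227 and 194 CPM against 53.1, 47.5, 12.7 and 56.3 CPM and rose by 2.43 (SE 0.286, adjusted p = 2.27e-09). Of the 9 inhibitory receptors tested, 5 rose and 0 fell against Cx3cr1 single-positive Tc (Pdcd1, Cd160, Cd38, Lag3 and Cd200r1), with a median of 1.65, and 0 rose and 2 fell against Tox single-positive Tc (Cd160 and Cd200r1), with a median of −0.31. The rise of Cd200r1 was lost without Fl1 or Cre1 (adjusted p up to 0.165), and as Lag3 was also lost without Cre1, 3 of the 5 passed there. The fall of Cd160 by 0.44 (adjusted p = 0.0322) was lost without Fl1, Fl2 or Cre1 (up to 0.361), and that of Cd200r1 by 1.00 (adjusted p = 0.000781) held with each library left out.

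Of 8 exhaustion transcription factors tested, 4 rose and 0 fell against Cx3cr1 single-positive Tc (Nr4a2, Eomes, Batf and Nfatc1), and none passed the test against Tox single-positive Tc. Eomes, a T-box factor, was at 219, 62.3, 137 and 163 CPM against 83.4, 11.9, 12.7 and 28.1 CPM and rose by 1.87 (SE 0.356, adjusted p = 0.000159). Batf, an AP-1 factor of stimulated Tc, was at 184, 173, 133 and 250 CPM against 60.7, 35.6, 50.6 and 141 CPM and rose by 1.41 (SE 0.275, adjusted p = 0.000211). Nfatc1 rose by 0.89 (adjusted p = 0.0108, 0.433 without Cre1), and Nr4a2, with 3 UMIs in Cx3cr1 single-positive Tc, lost its call without Fl1 or Cre1 (adjusted p up to 0.268).

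**Figure D3:**
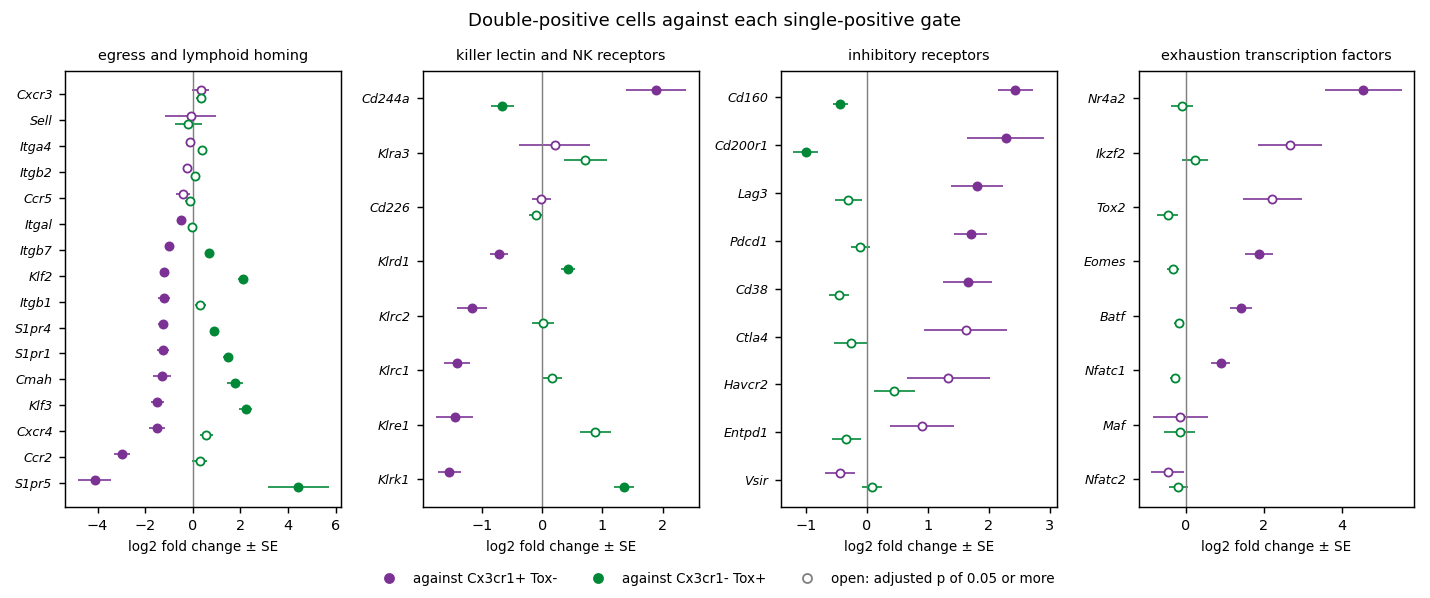
Log2 fold changes with SE (horizontal axes) of double-positive Tc against Cx3cr1 single-positive Tc (purple) and Tox single-positive Tc (green) for the tested genes of 4 lists (vertical axes). Filled points passed an adjusted p of 0.05; of 16 egress genes 1 lies above 0 in purple and 13 in green, and of 9 inhibitory receptors 8 lie above 0 in purple and 2 in green.

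Of 11 stem-like genes tested, 0 rose and 1 fell against Cx3cr1 single-positive Tc (Satb1, a chromatin organizer of early Tc, by 1.42 with an adjusted p of 0.00016), and none passed the test against Tox single-positive Tc. Of 10 cytokine and chemokine genes, Ccl3 and Ccl4 rose against Cx3cr1 single-positive Tc and none passed the test against Tox single-positive Tc. Ccl3 was at 667, 62.3, 468 and 919 CPM, lowest in Cre2, from a gate where it was at 0 in both Fl libraries, and both calls were lost without Cre1, Fl1 or Fl2 (adjusted p up to 0.269 for Ccl3 and 0.274 for Ccl4). Of 15 TCR signaling genes 1 rose against Cx3cr1 single-positive Tc, Nfkbia, whose call was lost without Cre2 (adjusted p = 0.211). Of 10 glycolysis genes 1 rose and of 11 interferon genes 1 fell against that gate. No gene of these lists passed the test against Tox single-positive Tc. Of 11 cytokine receptors, 1 rose and 3 fell against the first gate, and 1 rose and 2 fell against the second. Without Cre1, Il18r1 and Ifngr1 no longer passed among the 3 that fell (adjusted p up to 0.251), which left 1. Among those that fell against the second gate, Il21r was lost without Cre1, Fl1 or Fl2 (up to 0.338) and Il12rb1 without Cre1 or Cre2 (up to 0.0821). Il18rap, a subunit of the IL-18 receptor, lay between them at 136, 154, 162 and 156 CPM, with a fall of 1.60 (adjusted p = 4.83e-05) and a rise of 0.90 (adjusted p = 0.00979, 0.166 without Cre2).

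Against all other non-cycling CD8+ Tc, of which 1722 of 2228 were Tox single-positive, 89 of 7714 genes tested rose (1.15%) and 28 fell (0.363%), 117 in all (1.52%). Without Cre1, Cre2, Fl1 and Fl2 the genes that rose were 39, 49, 40 and 87, and those that fell 16, 8, 14 and 25. Of the 117 genes, 25 (21.4%) passed with each library left out. The libraries of the classes did not overlap for 289 of 7714 genes (3.75%).

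The following 8 genes that rose were named after their values were seen. Lgals1, which encodes the secreted lectin galectin-1 (chr15:78926725-78930465, plus strand), was at 2257, 1904, 1961 and 2538 CPM against 1232, 1103, 1026 and 1378 CPM, with no overlap. It rose by 0.88 (SE 0.0565, adjusted p = 4.64e-21). Lgals3, which encodes galectin-3, rose by 1.05 (SE 0.0908, adjusted p = 1.4e-14), at 543, 430.5, 597 and 925 CPM against 277, 172, 302 and 504.5 CPM. Crip1, a LIM domain protein, was at 1482, 1890, 2400 and 894 CPM against 824.5, 1035, 1344 and 723.6 CPM and rose by 0.75 (SE 0.0702, adjusted p = 1.8e-10). Each library of double-positive Tc was above the other cells of its own mouse for all 3 genes. S100a4 and S100a6, which encode calcium-binding proteins, rose by 0.57 and 0.43, Vim, which encodes vimentin, by 0.68, Emp3 by 0.78 and Ahnak, a large scaffold protein, by 0.74. All of these 8 passed with each library left out. Without the mouse as a block, Lgals1 alone of the 8 passed (adjusted p for the others between 0.163 and 0.981). Under the rule after thinning Emp3, S100a6 and Vim did not pass, and with at least 2 UMIs of each gene S100a4, S100a6 and Vim did not. Against all other CD8+ Tc, cycling ones included, the rises were smaller for Lgals1 (0.47), Crip1 (0.39), Emp3 (0.39) and Vim (0.29). Against Cx3cr1 single-positive Tc alone none of the 8 rose. Ahnak fell there by 1.04 (adjusted p = 5.35e-09), Emp3 by 0.63 (adjusted p = 0.0011, 0.124 without Cre2) and Lgals1 by 0.31 (adjusted p = 0.042, lost without Cre1 or Cre2, up to 0.437).

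By the rule for the largest changes, the 10 genes that rose most were Rom1 (1.61), Hist1h1b (1.49), Arl5c (1.41), Pde2a (1.38), Gas7 (1.38), Klf3 (1.37), Rasa3 (1.33), Prr5l (1.27), Serp2 (1.27) and Tgif1 (1.24). Rasa3, a GTPase-activating protein for Ras and Rap that restrains integrins, was at 213, 100, 245 and 106 CPM against 58.3, 58.7, 89.2 and 64.1 CPM (SE 0.158, adjusted p = 1.26e-08). Rasgrp2, the exchange factor that activates Rap1, rose by 1.03 (SE 0.137, adjusted p = 7.33e-08), named after its value was seen, and fell by 0.90 against Cx3cr1 single-positive Tc (adjusted p = 0.0011, 0.0746 without Cre2). Rom1, Hist1h1b, Klf3 and Rasa3 passed with each library left out. Serp2 lost its call in 1 such repeat (adjusted p 0.0636) and Prr5l in 1 (0.244), Arl5c in 2 (up to 0.211), and Pde2a, Gas7 and Tgif1 in 3 (up to 0.343, 0.262 and 0.448).

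Hist1h1b encodes a histone H1 of dividing cells, and its near-identical relatives make its count uncertain. It was at 60.3, 37.9, 43.2 and 263 CPM against 25.4, 17.0, 12.9 and 82.0 CPM, highest in Fl2. Its difference reversed to −3.42 when cycling cells were among the other CD8+ Tc and to −0.30 under the rule after thinning (adjusted p = 0.976). Of the 11 cell cycle genes tested, 3 rose and 0 fell, with a median of 0.43. H2afz rose by 0.44 (adjusted p = 3.74e-05) with each library left out as well, Hmgb2 by 0.43 (adjusted p = 0.000832) but not without Cre1 or Fl2 (up to 0.103), and Stmn1 by 0.86 (adjusted p = 0.0184) but not without Fl1 or Fl2 (up to 0.622). Cells in cycle in which neither Mki67 nor Top2a was caught stay in the gate, and their part in these rises was not tested.

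Of 15 egress genes tested here 4 rose (Klf3, S1pr1, Itga4 and Cmah) and 0 fell. S1pr1 was at 98.0 ± 54.7 against 51.5 ± 19.2 CPM and rose by 0.88 (SE 0.18, adjusted p = 0.00114), but by 0.68 with an adjusted p of 0.199 without Fl1, its highest library. Itga4, an integrin subunit for vessel adhesion, rose by 0.41 (adjusted p = 0.00692) and Cmah, an enzyme of sialic acid synthesis, by 0.99 (adjusted p = 0.0446), and each lost its call without any 1 of 3 libraries (up to 0.135 and 0.616). Klf2 was at 603 ± 251 against 239 ± 83.6 CPM, and its classes did not overlap. Its log2 difference of 1.39 (SE 0.246) had an adjusted p of 0.172 by edgeR and passed in 7 of 17 fits. Of the 4 fits with 1 library left out, only that without Fl2 passed (1.62, adjusted p = 6.6e-27). The highest adjusted p among them was 0.247. Zeb2 (0.78, adjusted p = 0.0111) was lost without Cre1, Cre2 or Fl2 (up to 0.344), and Klrk1 (0.78, adjusted p = 0.000532) without Cre2 (0.54, adjusted p = 0.249).

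Of the genes that fell, the 10 largest by the same rule were Fcer1g (−1.66), Il12rb1 (−1.46), Actn2 (−1.30), Wdr6 (−1.29), Prrt1 (−1.27), L3mbtl3 (−1.24), Tmem135 (−1.09), Trgv2 (−0.998), Cd200r4 (−0.83) and Cd200r1 (−0.82). Fcer1g, an adaptor of Fc and NK receptors, was at 3.17, 43.3, 3.60 and 0 CPM against 14.3, 96.6, 20.03 and 64.1 CPM. Its call alone among the 10 held with each library left out, and the others lost theirs in 2 to 4 of those 4 repeats. Id2 fell by 0.56 (SE 0.078, adjusted p = 1.53e-06) and passed with each library left out, but not without the mouse as a block (adjusted p = 0.23). Of 8 resident-like genes 3 fell (Cxcr6, Rgs1 and P2rx7) and 0 rose. Cxcr6, a chemokine receptor of tissue Tc, was at 444, 374, 338 and 425 CPM against 556, 498, 549 and 503 CPM, a fall of 0.41 (adjusted p = 0.00442) without overlap, which was lost without Fl1, Cre1 or Cre2 (up to 0.166). Of 13 interferon response genes 2 fell, Ly6a by 0.55 (adjusted p = 1.19e-05), also with each library left out, and Isg15 by 0.93 (adjusted p = 0.0241), lost in 3 of 4 repeats (up to 0.461).

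Lists with other results were few in this comparison. Of 12 stem-like genes 0 rose and 2 fell (Il7r and Satb1), and Il7r, the IL-7 receptor, fell by 0.68 (adjusted p = 0.000505) but not without Fl1 or Cre1 (up to 0.126), and Satb1 by 0.68 (adjusted p = 0.0348) but in no repeat that left out 1 library (0.0568 to 0.522). Of 11 cytokine receptors 2 fell, Il7r and Il12rb1. None of 13 cytotoxic, 9 exhaustion factor, 11 cytokine, 15 TCR signaling and 11 glycolysis genes passed in either direction. Havcr2 differed by 0.65 (adjusted p = 0.117).

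The double-positive Tc were not uniform. A Klf2 UMI was found in 117 of them and none in 94. With Klf2, S1pr1 was at 128, 147, 250.5 and 135 CPM, and without it at 11.96, 5.02, 12.1 and 12.7 CPM. Klf3 was at 191 CPM on average with Klf2 and at 8.25 CPM without. Pdcd1 was at 232 against 511 CPM and Lag3 at 192 against 442 CPM, higher without Klf2 in all 4 libraries. Cx3cr1 was at 390 against 254 CPM and Tox at 574 against 825 CPM. A split by Pdcd1 gave 142 cells with and 69 without a UMI, with Klf2 at 431 against 990 CPM, Zeb2 at 43.4 against 190 CPM and Lag3 at 344 against 206 CPM on average. Klf2 was lower with Pdcd1 in all 4 libraries, while in Fl1 Zeb2 went the other way (58.9 against 52.3 CPM) and Lag3 was 295 against 279 CPM. Such splits are on detection, which rises with depth, and are given with no test.

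**Figure D4:**
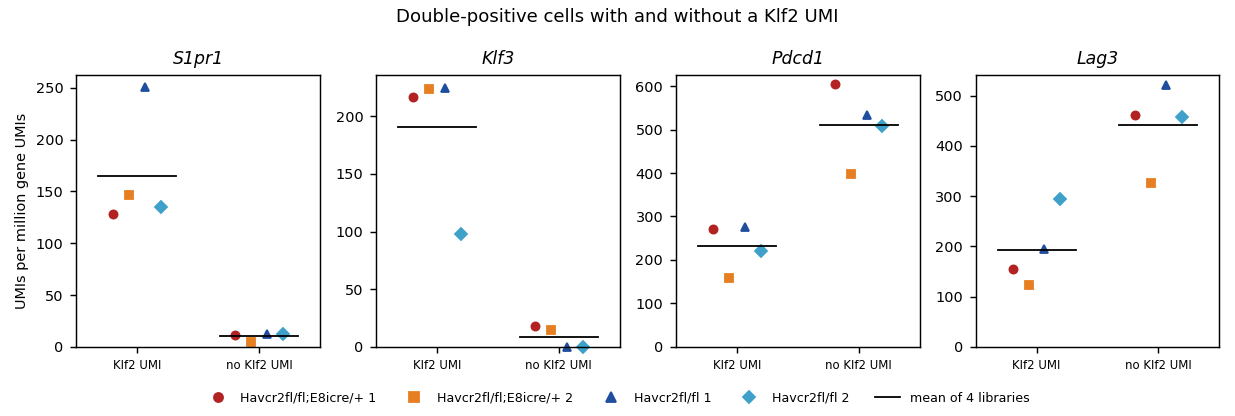
Levels (vertical axes, CPM) of S1pr1, Klf3, Pdcd1 and Lag3 in double-positive Tc with and without a Klf2 UMI (horizontal axes). Symbols are libraries and lines their means; S1pr1 averages 165 CPM with and 10.5 CPM without Klf2, and Pdcd1 232 and 511 CPM.

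Values on each side of the gate's limits were graded. Klf2 averaged 837 CPM in the 32 double-positive Tc with 1 UMI of each gene and 599 CPM in the 60 with 2 or more of each. Just outside, it averaged 1153 CPM in the 44 cells with 1 Cx3cr1 UMI and no Tox and 267 CPM in the 392 cells with 1 Tox UMI and no Cx3cr1. Further out it was at 1497 CPM in the 56 cells with 2 or more Cx3cr1 UMIs and no Tox, and at 108 CPM in the 993 cells with 3 or more Tox UMIs and no Cx3cr1. Inside the gate, Klf2 averaged 905 CPM with 1 Tox UMI (52 cells) and 385 CPM with 3 or more (117 cells), and Pdcd1 155.5 and 449 CPM. The 226 cycling CD8+ Tc with both genes had Klf2 at 402.5 CPM and Pdcd1 at 243 CPM.

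Markers of other cells were summed in the double-positive Tc. NK or innate lymphoid markers summed to 28.6, 59.6, 7.20 and 25.0 CPM, led by Fcer1g with 18 UMIs, and Ncr1, Klra8 and Klra4 were at 0. Myeloid markers summed to 206, 192, 176 and 219 CPM, led by Cst3, with 6 of 12 at 0, Csf1r and Adgre1 among them. B cell markers summed to 124, 122, 68.4 and 81.3 CPM, led by Ighm, and Ms4a1, Ebf1 and Pax5 were at 0. Erythroid markers reached 6085 CPM in Cre1 but 301, 241 and 825 CPM in the other libraries, led by Hbb-bs, against 3833, 869, 6692 and 4357 CPM in the other non-cycling CD8+ Tc, and 0 of 6 tested passed. Progenitor and leukemia markers stayed at 46.8 CPM or less, with Cebpe and Cd34 at 0. γδ Tc markers were at 175, 59.6, 50.4 and 50.0 CPM, with Sox13 and Trdv4 at 0, and Tcrg-C4 fell by 2.02 (adjusted p = 0.0473), a call lost without any 1 library. CD4+ Tc and Treg markers were at 336, 393, 209 and 450 CPM, led by Ikzf2, which exhausted CD8+ Tc express too. Of the CD8+ Tc identity genes that the rule did not use, none passed against the other non-cycling CD8+ Tc, while against Cx3cr1 single-positive Tc Trac rose by 0.72 (adjusted p = 4.59e-05) and Trbc2 by 0.54 (adjusted p = 0.0283) and Thy1 fell by 0.60 (adjusted p = 0.00166). A UMI of any Trav gene was caught in only 12 of 65, 29 of 60, 12 of 41 and 5 of 45 double-positive Tc and of any Trbv gene in 17, 14, 13 and 5, so that clonal make-up could not be read from these counts.

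Within the double-positive Tc, no gene passed the test between genotypes: 0 of 4453 (0.0%) did by edgeR's quasi-likelihood test and 0 by DESeq2, with 146 and 24 genes at an unadjusted p under 0.05. Without Cre1, 11 genes rose and 4 fell in the library labelled Havcr2fl/fl;E8icre/+, without Cre2 5 rose, and without Fl1 3 rose and 8 fell. Havcr2 differed by −1.60 (SE 1.102, adjusted p = 1.00), and without Cre1 by −4.31, with 2 UMIs in the single Cre library left. The difference of Havcr2 was −0.67 without Cre2, −2.35 without Fl1 and −0.60 without Fl2.

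Of the stem-like genes, Tcf7, which encodes TCF-1, was at 73.0, 135, 14.4 and 18.8 CPM, from 23, 50, 4 and 3 UMIs. Its log2 difference was 2.68 (SE 0.534, adjusted p = 0.461), past the threshold with no filter on low counts (2.71, adjusted p = 0.00078) and without Cre1 (3.07, adjusted p = 0.00034), where 1 Cre library is set against Fl libraries of 4 and 3 UMIs. Id3, an inhibitor of E proteins in stem-like Tc, was at 34.9, 154, 14.4 and 0 CPM, and Xcl1, a chemokine for cross-presenting DCs, at 82.5, 306, 10.8 and 37.5 CPM. Both were highest in Cre2. Their log2 differences of 3.36 and 3.21 each had an adjusted p of 1.00. With no filter on low counts both passed (3.39, adjusted p = 0.00014 for Id3 and 3.24, adjusted p = 1.9e-07 for Xcl1). The differences of Id3 and Xcl1 were 4.06 and 3.86 without Cre1, 7.79 and 2.41 without Fl1, and 2.71 and 4.14 without Fl2. Without Cre2 that of Xcl1 was 1.89.

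Whether genotype acted differently in double-positive Tc than in the other non-cycling CD8+ Tc was tested as an interaction. Of 8460 genes 5 passed (0.0591%), all with a higher Cre to Fl ratio in double-positive Tc: Cd74, S100a9, Id3, S100a8 and Xcl1, and 0 by DESeq2, with 355 and 49 genes at an unadjusted p under 0.05. Id3 differed by 2.92 (SE 0.63, adjusted p = 0.00968). In the other cells it was at 25.4, 51.0, 23.9 and 34.4 CPM. Xcl1 differed by 2.03 (SE 0.467, adjusted p = 0.0225), with 48.6, 164, 18.1 and 93.3 CPM in the other cells. Both calls were lost without Cre2 (2.13, adjusted p = 0.999 for Id3 and 1.97, 0.795 for Xcl1) and without Fl2 (2.06, 0.624 and 1.62, 0.919). Without Fl1, which leaves an Fl library with 0 Id3 UMIs in double-positive Tc, the fitted value of Id3 was 10.1 and is no bound. With the strict cell filter Id3 differed by 9.95 and Xcl1 by 3.37 (adjusted p = 2.0e-05 for Xcl1). With cells of 3000 to 10000 UMIs Id3 lost its call (2.67, adjusted p = 0.0749), while Xcl1 differed by 3.27 (adjusted p = 2.2e-05). Without Cre1 both remained past the threshold (3.23, adjusted p = 0.00322 and 2.07, adjusted p = 0.0272), and 7 genes were higher and 3 lower in all. Without Fl1, 10 were higher and 4 lower, and without Fl2, 3 and 1. Tcf7 differed by 2.12 (SE 0.52, adjusted p = 0.0664), and without Cre1 by 2.20. It passed with the strict cell filter (2.61, adjusted p = 0.0375) and with cells of 3000 to 10000 UMIs (3.56, adjusted p = 0.0024).

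**Figure D5:**
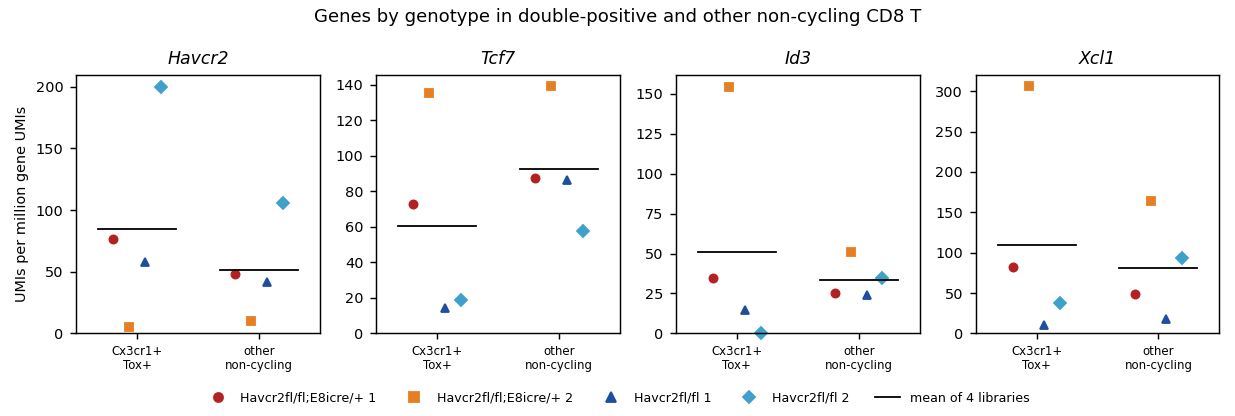
Levels (vertical axes, CPM) of Havcr2, Tcf7, Id3 and Xcl1 in double-positive Tc and in the other non-cycling CD8+ Tc (horizontal axes). Symbols are libraries and lines the means of 4; Havcr2 of Havcr2fl/fl;E8icre/+ replicate 1 (76.2 CPM) lies within the Havcr2fl/fl libraries, and Tcf7 of both Havcr2fl/fl libraries is under 20 CPM in double-positive Tc.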

How the data were processed

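Per the labels, spleen Tc were profiled by 10x Genomics 3′ single-cell RNA-seq with a TotalSeq tag against H-2Kb. The deposited matrices hold UMI counts per gene and barcode, which the authors made with Cell Ranger 6.1.2 on mm10 (submitters' processing notes), and they were used as deposited, with no other columns left out. The labels name a pan-T kit and the study's figure legend a sort of donor Tc, and the counts do not settle which was used. The members and gene lists were chosen with earlier results of these data known.

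For each library the counts of all cells of a class were added up and tested with edgeR 4.0.16 (quasi-likelihood, TMM, genes with low counts filtered, R 4.3.3), with the library as a block for comparisons within mice. P-values were adjusted by Benjamini-Hochberg over all genes tested, at a threshold of 0.05. The SE was back-calculated as the absolute log2 fold change over the square root of the quasi-likelihood F statistic. It leaves out the degrees of freedom of the gene, so a small SE can go with a large adjusted p. Levels are UMIs per 1000000 UMIs of the summed class. The libraries come from separate mice. DESeq2 1.42.0, scanpy 1.11.5 and scipy 1.17.1 were also used. Wilson intervals are at 95%. The steps were tested on simulated data with 200 changed genes.

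Alternatives were DESeq2 and its size factors, no filter on low counts, each library left out, a stricter cell filter (1000 genes, 5% mitochondrial), donor-tagged cells only, doublet scores removed, 3000 to 10000 UMIs, at least 2 UMIs of each gene, all other CD8+ Tc, fits with or without the block, the rule applied after thinning to 2000 UMIs, and the share of non-cycling cells. Leaving out cells with 10 or more UMIs of S100a8 and S100a9, or of Cd74, was chosen after seeing the data.

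Genes were named as list members past the threshold against the other non-cycling CD8+ Tc (up to 6 a list), Klf2, S1pr1, Havcr2, the 10 largest changes in each direction with a mean of at least 20 CPM and the same sign in all 4 libraries (without rule, mitochondrial and ribosomal genes), and up to 5 genes a direction for genotype. Other genes, and those named in comparisons with the single-positive gates, were picked with their values in view.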

Additional observations from a re-analysis of the deposited data

Results flagged for a closer look

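For 5 genes the effect of genotype differed between double-positive Tc and the other non-cycling CD8+ Tc by edgeR's interaction test: Cd74 by 4.20, S100a8 by 3.75, S100a9 by 3.70, Id3 by 2.92 and Xcl1 by 2.03 on the log2 scale. For the 3 largest, few cells held many of the UMIs. Of the 3933 UMIs of S100a8 and S100a9 in the double-negative Tc of Fl1, 3920 were in 1 cell, and of the 936 in the Tox single-positive Tc of Cre1, 851 were in 1 cell. The double-positive Tc themselves held 20, 3, 11 and 1 such UMIs and 11, 19, 1 and 1 of Cd74, of which 13 of the 19 in Cre2 were in 1 cell. Without Cre1, Cd74 differed by 4.17 (adjusted p = 0.00076), S100a9 by 5.52 (adjusted p = 0.0593) and S100a8 by −0.47 (adjusted p = 1), and without Fl2 Cd74 differed by 2.75 (adjusted p = 0.778). With cells rich in these genes left out, that double-positive cell among them, a choice made after seeing the data, Cd74 differed by 2.07, S100a8 by 1.01 and S100a9 by 0.963, none past the threshold. Id3 remained past it (2.93, adjusted p = 0.0292) and Xcl1 did not (1.76, adjusted p = 0.414).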

How the results depend on the processing

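Against the other non-cycling CD8+ Tc, 89 genes rose and 28 fell. The counts were 47 and 5 with DESeq2, 17 and 14 with at least 2 UMIs of each gene, and 205 and 396 against all other CD8+ Tc. The rule after thinning gave 18 that rose, no filter on low counts 66 that fell and the strict cell filter 17 that fell. Against Cx3cr1 single-positive Tc, 204 rose with no filter, 81 rose and 61 fell at 3000 to 10000 UMIs, and 85 rose with at least 2 UMIs. Against Tox single-positive Tc, 39 rose and 10 fell with at least 2 UMIs, 8 fell with DESeq2 and 46 with no filter. Between genotypes, no filter gave 5 that rose and 3 that fell. The interaction gave 0 with DESeq2 or at least 2 UMIs and 1 without the cells rich in S100a8, S100a9 or Cd74. The causes were not tested.

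Without the replicate block, 3 rose and 0 fell against the other cells, 33 and 40 against Cx3cr1 single-positive Tc, and 29 and 0 against Tox single-positive Tc. Between genotypes a replicate block by number gave 0 calls. The numbers are not stated to pair mice. The correlation between same-numbered libraries' deviations was −0.0599 over 4453 genes. These are sums of 41 to 65 cells, so this value cannot settle whether they do.

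Leaving out 1 library, the counts that rose and fell ranged from 39 to 87 and 8 to 25 against the other cells, 69 to 142 and 53 to 115 against Cx3cr1 single-positive Tc, 52 to 76 and 9 to 18 against Tox single-positive Tc, 0 to 11 and 0 to 8 between genotypes, and 3 to 10 and 0 to 4 for the interaction. The difference in share ranged from −3.08 to 1.69 percentage points, was 0.163 after thinning, 0.410 at 2 UMIs of each gene and −0.993 among non-cycling cells. Hist1h1b reversed against all other CD8+ Tc (−3.42) and under the rule after thinning (−0.30). In the interaction, S100a8 reversed without Cre1 (−0.47), at 3000 to 10000 UMIs (−2.33) and with at least 2 UMIs (−3.02), and S100a9 without Fl1 (−1.46) and at 3000 to 10000 UMIs (−1.79). With 1 library left out S100a8 ranged up to 4.38 and S100a9 up to 5.52.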
